A study of Mus musculus with 12 samples.

Results

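Stem cell identity genes are transcripts used to mark, sort or score hematopoietic stem cells and their early progeny. The set described here has 34 listed genes, of which 32 had a probe set assigned to a single gene symbol among 18194 such genes on the array. The probe set with the highest mean intensity stood for each gene. Ly6a and Cd38 had no such probe set and were not analysed here. Of the 32 genes, 25 were bright enough to be tested, out of 12573 genes tested in all. The other 7 (Zfp521, Robo4, Hoxb5, Cd27, Emcn, Fgd5 and Trpc6) fell short of a mean of 7.70, below which 40% of probe sets lay. The nearest on either side of that limit were Procr with a mean of 8.03, which was tested, and Zfp521 with 6.22, which was not.

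The arrays came from a mouse study of Rictor, which the kinase complex mTORC2 needs to form and act, in acute leukemia driven by an MLL fusion. There were 4 groups of 3 arrays: MLL-AF9 leukemia with Rictor deleted (labelled RictorΔ/Δ), MLL-AF9 leukemia with Rictor wild type (labelled Control), MLL-NRIP3 leukemia with Rictor deleted, and MLL-NRIP3 leukemia with Rictor wild type. All groups were leukemia cells labelled K+G– sorted from the marrow of first transplantation recipients, taken when more than 50% of blood white cells were CD45.2+. The labels give peripheral blood as the host tissue, and the sources used here do not give the Cre line, the deleted part of Rictor, the age of the mice or the meaning of K+G–. The labels do not say whether 1 mouse or several supplied a group, and the p-values therefore cover array-to-array spread, which may be technical. Values are linear intensities, and fold changes are on the scale of log2(intensity + 16), which understates the changes of dim genes. Calls were made with limma at an adjusted p of 0.05, by Benjamini-Hochberg over the 12573 genes. A probe set is called dim in a model when both group means lay under the median of all probe sets there, which was 8.25 on the MLL-AF9 arrays and 13.9 on the MLL-NRIP3 arrays.

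Adult hematopoietic stem cells rest in the bone marrow, renew themselves and give rise to progenitors that divide and mature. They are recognised by surface proteins such as CD150 and EPCR together with the absence of CD48, and they depend on transcription factors such as HLF, MECOM, ERG and PRDM16. MLL fusion proteins turn committed myeloid progenitors into self-renewing leukemia cells and keep part of this program active, with MYB, MEF2C and MECOM among the factors described in MLL leukemia.

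Several features of the arrays bear on what follows. MLL-NRIP3 control arrays 1 and 2 stood apart: their Gapdh 5' to 3' probe ratio was 0.562 and 0.738, against 0.881 to 0.965 on the other 4 arrays of that model, and their hybridization control signal averaged 10.7 and 9.99 on the log2 scale, against 8.53 to 8.77. In MLL-AF9 leukemia the genotypes also differed in sex-linked transcripts. Xist read 34.3 to 208 in Rictor-deleted cells and 2348 to 2441 in controls, and Eif2s3y read 149 to 186 and 3.43 to 7.81, so genotype and the sex of the cells cannot be told apart there. No member lies on the X or Y chromosome. The brightest Rictor probe set showed no loss, at 77.9 to 96.4 in Rictor-deleted and 83.7 to 92.4 in control MLL-AF9 cells, and at 84.5 to 121 and 87.5 to 139 in MLL-NRIP3 cells, so it does not check the genotype labels. Other Rictor probe sets differed by genotype without being called: in MLL-AF9 cells 1441753_at read 14.8 to 19.4 in Rictor-deleted and 21.3 to 23.2 in control cells (adjusted p = 0.096), and 1429810_at read 24.5 to 26.5 and 29.3 to 32.9 (adjusted p = 0.19). In MLL-NRIP3 cells 1453775_at was at 61.3 to 140.2 in Rictor-deleted and 37.7 to 66.2 in control cells (log2 fold change 0.93, adjusted p = 0.16). Where these lie relative to the deleted part was not tested. Ptprc, which encodes the pan-leukocyte protein CD45, read 1448 to 2244 on all 12 arrays.

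Prom1, Adgrl4 and Cd34 were the 3 members whose response to Rictor deletion differed between the leukemias. Prom1, which encodes CD133 (prominin-1), a membrane glycoprotein used to enrich stem and progenitor cells in several tissues, read 283, 305 and 221 on the 3 Rictor-deleted MLL-AF9 arrays, against 65.3, 69.8 and 53.7 on the controls. In MLL-NRIP3 leukemia it read 56.9, 79.4 and 63.97 on Rictor-deleted arrays and 97.6, 132.9 and 88.0 on controls. The genotypes did not overlap in either leukemia, with the deleted arrays above the controls in MLL-AF9 and below them in MLL-NRIP3. The log2 fold change was 1.85 ± 0.12 in MLL-AF9 cells (SE, 3.61-fold, limma adjusted p = 4.1e-06) and -0.55 ± 0.18 in MLL-NRIP3 cells (adjusted p = 0.17).

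Adgrl4 encodes an adhesion G protein-coupled receptor that is also found on endothelium. It read 69.2, 55.6 and 65.3 on Rictor-deleted MLL-AF9 arrays, against 154, 195 and 161 on controls. On MLL-NRIP3 arrays it read 465, 365 and 461 in Rictor-deleted cells and 362, 320.2 and 397 in controls. The deleted arrays lay below all controls in MLL-AF9 leukemia, and the genotypes overlapped in MLL-NRIP3 leukemia. The log2 fold change was -1.23 ± 0.10 in MLL-AF9 cells (SE, 2.35-fold lower, adjusted p = 2.2e-05) and 0.24 ± 0.14 in MLL-NRIP3 cells (adjusted p = 0.41). Its other probe set, 1418059_at, gave -1.26 ± 0.12 in MLL-AF9 cells when each probe set was tested on its own (adjusted p = 1.2e-04).

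Cd34, the sialomucin that marks progenitors and is low on long-term stem cells of adult mice, read 408, 335 and 456 on Rictor-deleted MLL-AF9 arrays, against 567, 501 and 560.0 on controls. On MLL-NRIP3 arrays it read 833, 564 and 967 in Rictor-deleted cells and 376, 284 and 203 in controls. Deleted arrays lay below every control in MLL-AF9 leukemia and above every control in MLL-NRIP3 leukemia. The log2 fold change was -0.44 ± 0.10 in MLL-AF9 cells (SE, 1.35-fold lower, adjusted p = 0.017) and 1.41 ± 0.25 in MLL-NRIP3 cells (2.66-fold, adjusted p = 0.035). The MLL-AF9 call ended without control array 3 (adjusted p = 0.072). The MLL-NRIP3 call ended without control arrays 1 and 2, where the log2 fold change was 1.85 with an adjusted p of 0.10 and the lone control is assumed to vary like the other arrays, and without control array 2 alone (adjusted p = 0.12). It was kept in 13 of 20 alternative settings and did not rest on the controls alone. It was also lost without Rictor-deleted array 1 (adjusted p = 0.12) or 3 (0.084), with no trend (0.065), with the hybridization control covariate (0.076) and with the mean of probe sets (0.069).

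**Figure D1:**
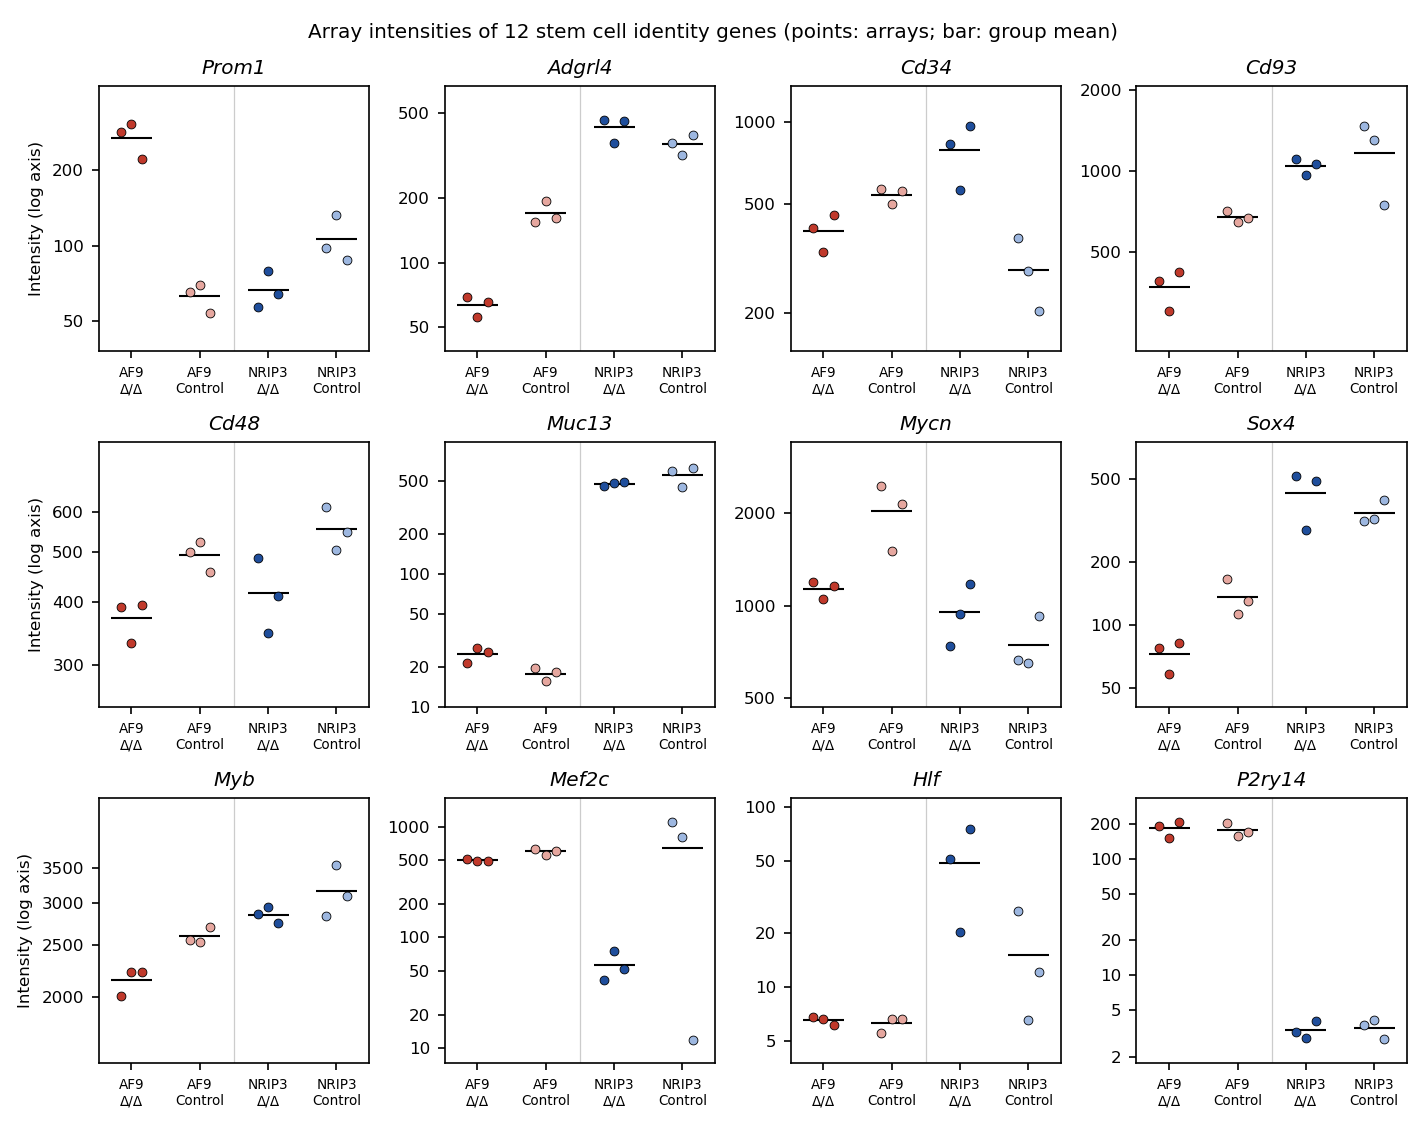
Intensities of 12 members on every array, on log axes, with points for arrays and bars for group means. In each panel the Rictor-deleted arrays (Δ/Δ) stand left of the controls of the same leukemia; Prom1 was 221 to 305 in Rictor-deleted and 53.7 to 69.8 in control MLL-AF9 cells, and Mef2c had 1 control array of MLL-NRIP3 leukemia far below the other two.

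The difference of the responses, MLL-NRIP3 minus MLL-AF9, was fitted on all 12 arrays with a spread of its own for each model. It was -2.40 ± 0.26 on the log2 scale for Prom1 (adjusted p = 1.4e-04), 1.85 ± 0.28 for Cd34 (adjusted p = 0.0017) and 1.47 ± 0.21 for Adgrl4 (adjusted p = 0.0010). These were 3 of the 25 members tested, 2 higher and 1 lower, and 4.78% of all genes were called in this comparison, 2.25% higher and 2.53% lower. All 3 were called under each of 26 alternative settings, one of which left out control arrays 1 and 2 of MLL-NRIP3 leukemia, where the differences were -2.19, 2.28 and 1.33. Of the other members the closest to a call were Mycn with a difference of 1.14 (adjusted p = 0.057), Hlf with 1.00 (adjusted p = 0.073) and Sox4 with 1.03 (adjusted p = 0.079). Hlf was dim in MLL-AF9 cells. The next 2 brightest Sox4 probe sets gave differences of 0.21 and 0.05 (limma adjusted p = 0.78 and 0.95). The median difference over the 25 members was 0.10, beside 0.0081 over all genes tested. On simulated data 14.7% of the calls of this test were false, more than an adjusted p of 0.05 allows. The difference also carries the sex difference between the MLL-AF9 genotypes.

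The 250 bases upstream of the annotated start of these 3 genes are shown because the test of the difference called these members and no others. They are from RefSeq on GRCm38.p6, read 5' to 3' on the strand of the gene; Cd34 is at chr1:194938571-194938820 (plus strand), Prom1 at chr5:44101737-44101986 (minus strand, the more upstream of 2 starts in the table) and Adgrl4 at chr3:151437632-151437881 (plus strand). Capitals mark matches, on either strand, to the letters GGAA (the core bound by ETS factors such as ERG), TGTGGT (RUNX) and TGACAG (MEIS).
Cd34: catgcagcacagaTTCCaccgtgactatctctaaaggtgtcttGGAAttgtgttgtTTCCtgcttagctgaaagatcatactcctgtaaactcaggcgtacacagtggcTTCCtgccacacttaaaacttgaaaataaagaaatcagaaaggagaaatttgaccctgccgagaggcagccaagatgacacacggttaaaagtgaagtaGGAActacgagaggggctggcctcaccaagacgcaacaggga
Prom1: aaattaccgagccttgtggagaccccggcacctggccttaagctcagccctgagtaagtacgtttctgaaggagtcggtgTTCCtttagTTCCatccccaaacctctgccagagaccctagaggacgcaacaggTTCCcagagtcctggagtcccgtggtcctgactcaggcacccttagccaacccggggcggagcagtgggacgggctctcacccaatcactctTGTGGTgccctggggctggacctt
Adgrl4: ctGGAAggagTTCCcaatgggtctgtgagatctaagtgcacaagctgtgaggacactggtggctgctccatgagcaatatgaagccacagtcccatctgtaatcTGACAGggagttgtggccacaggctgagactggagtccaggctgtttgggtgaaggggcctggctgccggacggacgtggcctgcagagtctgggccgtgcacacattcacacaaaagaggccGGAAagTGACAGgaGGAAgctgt
Both strands were also searched for GATAA, the letters of GATA factors, for GTAAACA, those of FoxO factors, and for CACGTG, those of MYC, and these windows hold none of them. No marked match overlaps another. GGAA had 5 matches in Cd34, 3 in Prom1 and 4 in Adgrl4, and 93.4% of 32851 mouse promoters of that length hold at least 1. TGTGGT had 1 match in Prom1 (14% of promoters hold it), and TGACAG had 2 in Adgrl4 (15.9%). GATAA is held by 22.6% of promoters, GTAAACA by 3.2% and CACGTG by 6.0%. These matches are letters in a window and not measured binding.

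Over the whole set, Rictor deletion in MLL-AF9 leukemia came with lower levels of 8 members (Adgrl4, Cd93, Mycn, Sox4, Cd34, Cd48, Myb and Mef2c) and higher levels of 2 (Prom1 and Muc13). That is 10 of 25 tested members, against 8.26% of all genes tested, and by direction 3.8% of genes were called higher and 4.46% lower. The same 10 members were the ones whose 3 deleted arrays did not overlap the 3 controls, a pattern shown by 27.1% of all genes, 11.4% higher and 15.7% lower. The median log2 fold change of the 25 was -0.0077, beside -0.0093 for all genes, so the members that were not called lay on both sides of 0. With 1 spread shared by all 12 arrays, only Prom1 and Adgrl4 were called; they were also the only ones called under each of 19 alternative settings.

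In MLL-NRIP3 leukemia 1 of 25 tested members was called, Cd34, which was higher, against 1.53% of all genes, 0.779% higher and 0.748% lower. The genotypes did not overlap for 4 members (Cd34 and Procr higher, Cd48 and Prom1 lower), and 22.5% of all genes had that pattern, 9.7% higher and 12.7% lower. The median log2 fold change of the 25 was 0.05, beside -0.00047 over all genes. The median SD between arrays of a group was 0.136 and 0.146 on the log2 scale in Rictor-deleted and control MLL-NRIP3 cells, and 0.0624 and 0.0757 in MLL-AF9 cells.

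**Figure D2:**
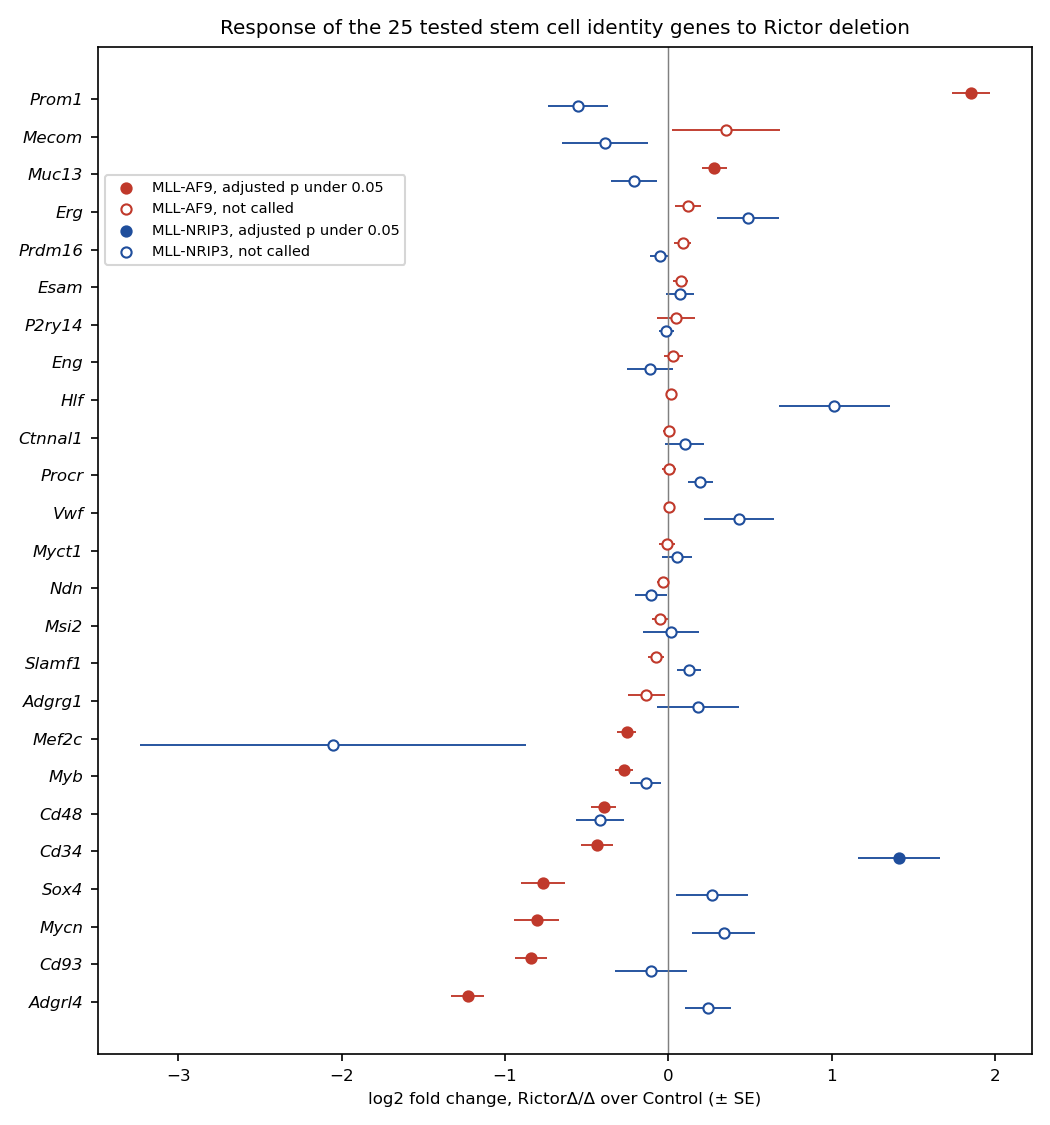
The log2 fold change, Rictor-deleted over control, with its SE for the 25 tested members in MLL-AF9 (red) and MLL-NRIP3 leukemia (blue), with filled symbols for adjusted p under 0.05. Prom1 at 1.85 and Adgrl4 at -1.23 are the ends of the MLL-AF9 range, Cd34 at 1.41 is the one filled symbol of MLL-NRIP3, and Mef2c at -2.05 has the widest error.

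Among the surface proteins of long-term stem cells, 6 of 10 were tested and Adgrl4 was the one called. It was lower in MLL-AF9 leukemia, where 4.46% of all genes tested were called lower. Slamf1 (CD150) and Procr (EPCR), which define the purest stem cell gates, were dim in both leukemias. Procr read 6.87, 4.92 and 5.09 in Rictor-deleted and 5.69, 6.42 and 4.63 in control MLL-AF9 cells. In MLL-NRIP3 leukemia it read 14.8, 11.8 and 10.2 in Rictor-deleted cells and 7.48, 9.97 and 8.53 in controls. The MLL-NRIP3 arrays did not overlap by genotype, all within a narrow range near or below the median of the arrays (log2 difference 0.20, adjusted p = 0.24), so no fold was read. Slamf1 read between 4.97 and 7.79 on MLL-AF9 arrays and between 8.29 and 13.5 on MLL-NRIP3 arrays, with overlapping genotypes. Eng, a co-receptor for TGF-beta ligands, read 19.9 to 22.1 in Rictor-deleted and 19.2 to 21.1 in control MLL-AF9 cells, and 35.9 to 45.7 and 37.4 to 52.2 in MLL-NRIP3 cells. Esam, an adhesion molecule shared with endothelium, and Adgrg1, the adhesion receptor GPR56, also overlapped in both. The highest reading of Robo4, Emcn or Trpc6 on any array was 8.77.

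Cd93, a C-type lectin-like receptor of early progenitors, showed the largest fall among the progenitor surface proteins after Rictor deletion in MLL-AF9 leukemia. It read 392.03, 303 and 423 in Rictor-deleted cells and 709, 646 and 669 in controls, with no overlap (log2 fold change -0.84 ± 0.10, SE, adjusted p = 3.8e-04). Its second bright probe set, 1456046_at, gave -0.89 ± 0.12 (adjusted p = 0.0013). In MLL-NRIP3 leukemia it read 1109, 968 and 1063 in Rictor-deleted cells, inside the control range of 747 to 1466 (log2 fold change -0.11, adjusted p = 0.84). The 2 high controls were arrays 1 and 2, and without them the fold turned to 0.47 (adjusted p = 0.36). The difference of the responses was 0.74 with all arrays (adjusted p = 0.15) and was called without those 2 arrays, at 1.32 (adjusted p = 0.034).

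Cd48, a SLAM-family receptor that is absent from long-term stem cells and present on their progeny, fell after Rictor deletion in MLL-AF9 leukemia. In MLL-AF9 cells it read 390.1, 332 and 393 in Rictor-deleted and 499.97, 523 and 458 in control cells (log2 fold change -0.40 ± 0.08, SE, adjusted p = 0.0080). In MLL-NRIP3 cells it read 488, 347 and 409.9 in Rictor-deleted and 615, 505 and 549 in control cells (-0.42 ± 0.15, adjusted p = 0.20). The genotypes did not overlap in either leukemia. The MLL-NRIP3 value was not called, and the difference between the leukemias was -0.02 ± 0.18 (adjusted p = 0.97).

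Muc13, a transmembrane mucin, read 21.3, 27.9 and 26.2 in Rictor-deleted and 19.7, 15.6 and 18.3 in control MLL-AF9 cells (log2 fold change 0.28 ± 0.08, SE, adjusted p = 0.048). The groups did not overlap, but the adjusted p lay at the threshold and the call was kept in 6 of 19 alternative settings. Its other probe set, 1419386_at, was dim there and showed no rise, at means of 7.94 in Rictor-deleted and 8.03 in control cells (limma adjusted p = 0.96). In MLL-NRIP3 leukemia Muc13 read 461, 486 and 495 in Rictor-deleted cells, within the control range of 453 to 634. P2ry14, a receptor for UDP-sugars on progenitors, overlapped by genotype in both leukemias, and Cd27, a TNF-receptor family member, stayed at 6.16 or below on all arrays.

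Of the 10 transcription factors 8 were tested, and 4 (Mycn, Sox4, Myb and Mef2c) were lower in Rictor-deleted than in control MLL-AF9 cells. Of all genes tested 4.46% were called lower there. Mycn, a MYC family factor, read 1191, 1048 and 1160 in Rictor-deleted and 2450, 1503 and 2141 in control MLL-AF9 cells. The lowest control lay above the highest deleted array, and the controls spread widely (log2 fold change -0.81 ± 0.14, SE, 1.75-fold lower, adjusted p = 0.0040). In MLL-NRIP3 leukemia Mycn read 737, 939 and 1179 in Rictor-deleted and 666, 648 and 924 in control cells, with overlap (0.34 ± 0.19, adjusted p = 0.40). The 2 other Mycn probe sets were near the floor, so the mean of its probe sets was not called in MLL-AF9 leukemia (adjusted p = 0.094).

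Sox4, an HMG-box factor of immature blood cells, read 78.1, 58.7 and 82.2 in Rictor-deleted and 166, 113 and 129.9 in control MLL-AF9 cells, with no overlap (log2 fold change -0.77 ± 0.13, SE, adjusted p = 0.0047). Its next probe sets, 1419156_at and 1419155_a_at, gave -0.41 and -0.32 and were not called (adjusted p = 0.053 and 0.052). In MLL-NRIP3 leukemia Sox4 read 519, 285 and 487 in Rictor-deleted and 316, 322 and 399 in control cells, with overlap. There the brightest probe set gave a log2 fold change of 0.27, and 1419156_at and 1419155_a_at gave -0.20 and -0.27. None of these was called.

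Myb, which was the brightest member, read 2003, 2225 and 2229 in Rictor-deleted and 2552, 2533 and 2707 in control MLL-AF9 cells (log2 fold change -0.27 ± 0.05, SE, adjusted p = 0.0093). The groups did not overlap, and the shift was 1.21-fold. Its 2 other probe sets were not called: 1450194_a_at gave -0.21 (adjusted p = 0.15) with overlapping genotypes, and 1422734_a_at gave -0.40 (adjusted p = 0.067). The mean of the Myb probe sets was not called either (adjusted p = 0.088). In MLL-NRIP3 leukemia it read 2861, 2949.8 and 2754 in Rictor-deleted and 2832, 3540.4 and 3101 in control cells (adjusted p = 0.49).

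Mef2c, a MADS-box factor of progenitors and of lymphoid and MLL-rearranged leukemia, read 509, 490.4 and 490.2 in Rictor-deleted and 628, 556 and 606 in control MLL-AF9 cells (log2 fold change -0.26 ± 0.06, SE, adjusted p = 0.021). The groups did not overlap, and the call ended when any one of 5 of the 6 arrays was left out, with adjusted p up to 0.084. In MLL-NRIP3 leukemia Mef2c read 41.5, 75.3 and 52.4 in Rictor-deleted cells, against 1110.0, 797 and 11.9 in controls. Control arrays 1 and 2 were far above, and control array 3 below, every Rictor-deleted array. All 5 Mef2c probe sets had that order: probe set 1424852_at, for example, read 14.9, 20.2 and 13.7 in Rictor-deleted cells and 333, 279 and 6.37 in controls.

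The MLL-NRIP3 fold of Mef2c therefore rested on which controls were used. With all arrays it was -2.05 ± 1.18 (SE, adjusted p = 0.40), without control array 3 it was -3.75 (adjusted p = 3.8e-04), and without control arrays 1 and 2 it was 1.35 (adjusted p = 0.17). Ighm, the immunoglobulin heavy chain mu gene of B-lineage cells, read 59.6, 35.4 and 60.2 in Rictor-deleted and 1113, 759 and 195 in control cells on the same arrays. Ighm was the one call among 8 tested B-lineage markers, and 0.748% of all genes were called lower there. Of the 8 markers, 4 had a positive and 4 a negative log2 fold change. Cd79a, Pax5, Vpreb1, Vpreb3 and Ms4a1 were dim on these arrays, so their signs cannot show whether the list followed Ighm. The summed intensity of 10 such markers was 160.5, 122 and 173 in Rictor-deleted cells and 1212, 850 and 277 in controls. Ighm made up most of that sum in the controls. Cd79b, a B-cell receptor subunit, read 30.8, 21.3 and 28.2 in Rictor-deleted and 27.1, 18.3 and 8.10 in control cells. The part of B-lineage cells in the Mef2c readings was not tested.

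**Figure D3:**
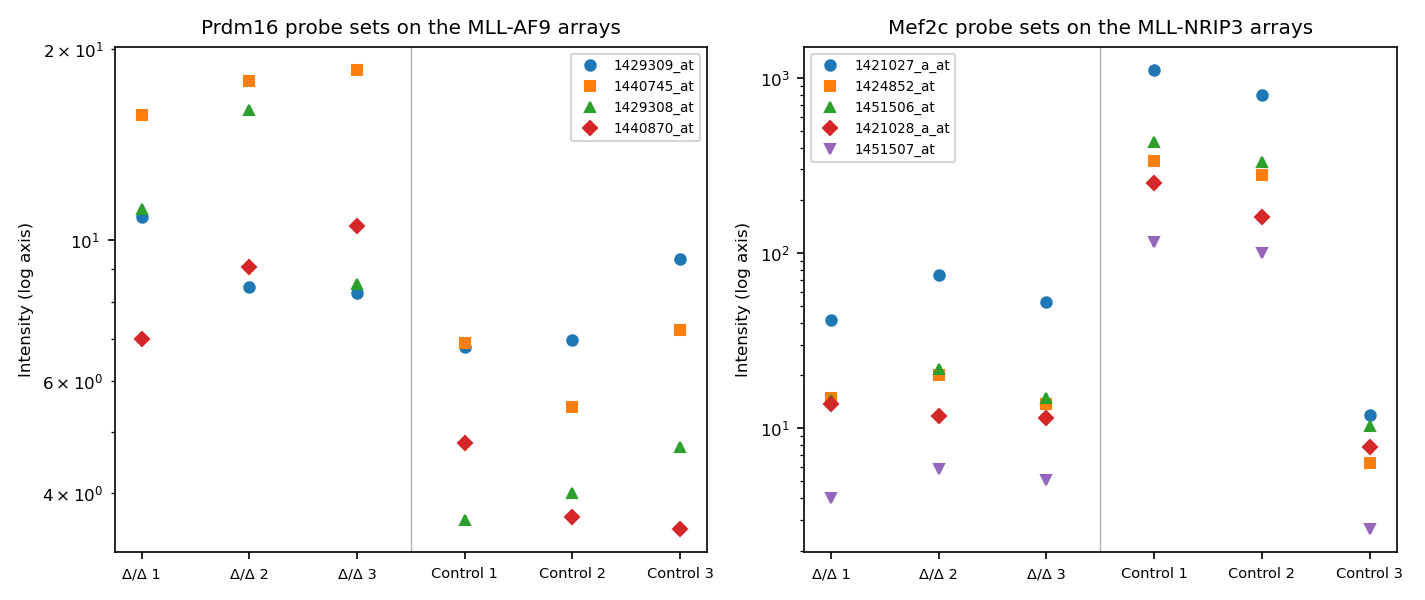
Intensity of every probe set of Prdm16 on the MLL-AF9 arrays and of Mef2c on the MLL-NRIP3 arrays, on log axes, with Rictor-deleted arrays (Δ/Δ) left of controls. The Prdm16 probe set 1440745_at lay at 15.7 to 18.5 in Rictor-deleted and 5.46 to 7.23 in control cells while 1429309_at overlapped, and all 5 Mef2c probe sets were low on control array 3.

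The other 4 tested factors (Prdm16, Hlf, Erg and Mecom) were not called in either leukemia. Prdm16, a zinc-finger factor needed for stem cell maintenance in mice, had probe sets that disagreed. Its brightest, 1429309_at, read 10.9, 8.45 and 8.26 in Rictor-deleted and 6.79, 6.98 and 9.33 in control MLL-AF9 cells, with overlap (log2 fold change 0.09, adjusted p = 0.38). Probe set 1440745_at read 15.7, 17.8 and 18.5 in Rictor-deleted and 6.90, 5.46 and 7.23 in control cells, with no overlap, and gave 0.57 ± 0.05 when each probe set was tested on its own (SE, adjusted p = 8.4e-05). The 2 dimmer ones, which were not tested, also separated: 1429308_at read 8.55 to 16.02 in Rictor-deleted and 3.63 to 4.73 in control cells, and 1440870_at read 7.00 to 10.5 and 3.51 to 4.79. The mean of the Prdm16 probe sets was called in MLL-AF9 leukemia (adjusted p = 7.3e-04). On the MLL-NRIP3 arrays 1440745_at read 4.17 to 4.62 in Rictor-deleted and 3.42 to 4.57 in control cells.

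Hlf, a factor largely restricted to stem cells in normal marrow, was dim on all MLL-AF9 arrays, at 6.13 to 6.82 in Rictor-deleted and 5.57 to 6.61 in control cells. In MLL-NRIP3 leukemia it read 51.1, 20.1 and 75.7 in Rictor-deleted and 26.4, 6.59 and 12.1 in control cells. Each array of a genotype differed widely from the next, and the genotypes overlapped (log2 fold change 1.02 ± 0.34, SE, adjusted p = 0.18). Erg, an ETS factor of stem cells, read 187 to 273 in Rictor-deleted and 128 to 193 in control MLL-NRIP3 cells, also with overlap (0.49 ± 0.19, adjusted p = 0.23). In MLL-AF9 cells it read 129 to 137 and 109 to 133, with overlap (0.12, adjusted p = 0.44). Its other probe set, 1425370_a_at, read 26.8 to 44.9 in Rictor-deleted and 18.8 to 24.2 in control MLL-AF9 cells. Those groups did not overlap, and it was not called (0.38, limma adjusted p = 0.105). In MLL-NRIP3 cells that probe set gave 0.17.

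Mecom (EVI1), a zinc-finger factor of stem cells, varied more within a group than between genotypes. It read 67.9, 91.1 and 78.0 in Rictor-deleted and 124, 23.3 and 57.7 in control MLL-AF9 cells, and was called when control array 1 was left out (adjusted p = 0.043). In MLL-NRIP3 leukemia it read 5.98 to 7.19 in Rictor-deleted cells and 6.41 to 33.8 in controls, where the high value came from 1 array. Zfp521 and Hoxb5 were too dim to be tested; Zfp521 read 33.4 on 1 Rictor-deleted MLL-NRIP3 array and 4.51 or below on the other 11.

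The 6 intracellular or secreted members gave no call by limma in either leukemia, and none of the 5 tested had an unadjusted p under 0.05. Of all genes tested 21.8% had such a p in MLL-AF9 and 17.7% in MLL-NRIP3 leukemia. Msi2, an RNA-binding protein of stem cells, read 6.86 to 8.62 in Rictor-deleted and 7.36 to 10.3 in control MLL-AF9 cells, and 156 to 211 and 144 to 207 in MLL-NRIP3 cells. Vwf, the platelet adhesion factor that marks platelet-biased stem cells, was at 4.23 or below on MLL-AF9 arrays and read 16.1, 31.4 and 7.16 in Rictor-deleted and 8.198, 7.99 and 8.75 in control MLL-NRIP3 cells. One array held its highest value, and the genotypes overlapped. Ctnnal1, Ndn and Myct1 stayed between 3.53 and 19.9 on all arrays, and Fgd5 between 2.73 and 4.82.

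Levels in the 2 leukemias are given as a description. Because the models appear to have been normalized separately, levels were compared as percentiles among the 18194 genes with a single-symbol probe set on each array. Shares of all genes are over the 12573 tested genes. The 6 MLL-NRIP3 arrays did not overlap the 6 MLL-AF9 arrays for 12 of 25 members, against 37.4% of all genes, 19.7% higher and 17.6% lower, so the share among the members was not far from that background. They were higher for 8 (Ctnnal1, Ndn, Vwf, Sox4, Adgrg1, Adgrl4, Msi2 and Muc13) and lower for 4 (Mecom, Mycn, Prdm16 and P2ry14). Ndn was dim in both models, Ctnnal1 and Vwf in MLL-AF9 cells, and Prdm16 and P2ry14 in MLL-NRIP3 cells. The other Ndn probe sets averaged 4.03 or below in every group. Ndn, Ctnnal1, Vwf and Prdm16 lay at percentile 50.9 or below on all arrays, so their separation is not read as a difference in expression. P2ry14 lay at percentiles 8.09 to 15.2 in MLL-NRIP3 and 81.1 to 86.2 in MLL-AF9 cells, Muc13 at 90.9 to 93.8 and 50.7 to 57.1, and Msi2 at 73.9 to 80.2 and 35.5 to 45.4. Myb stood above the 99th percentile in both.

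**Figure D4:**
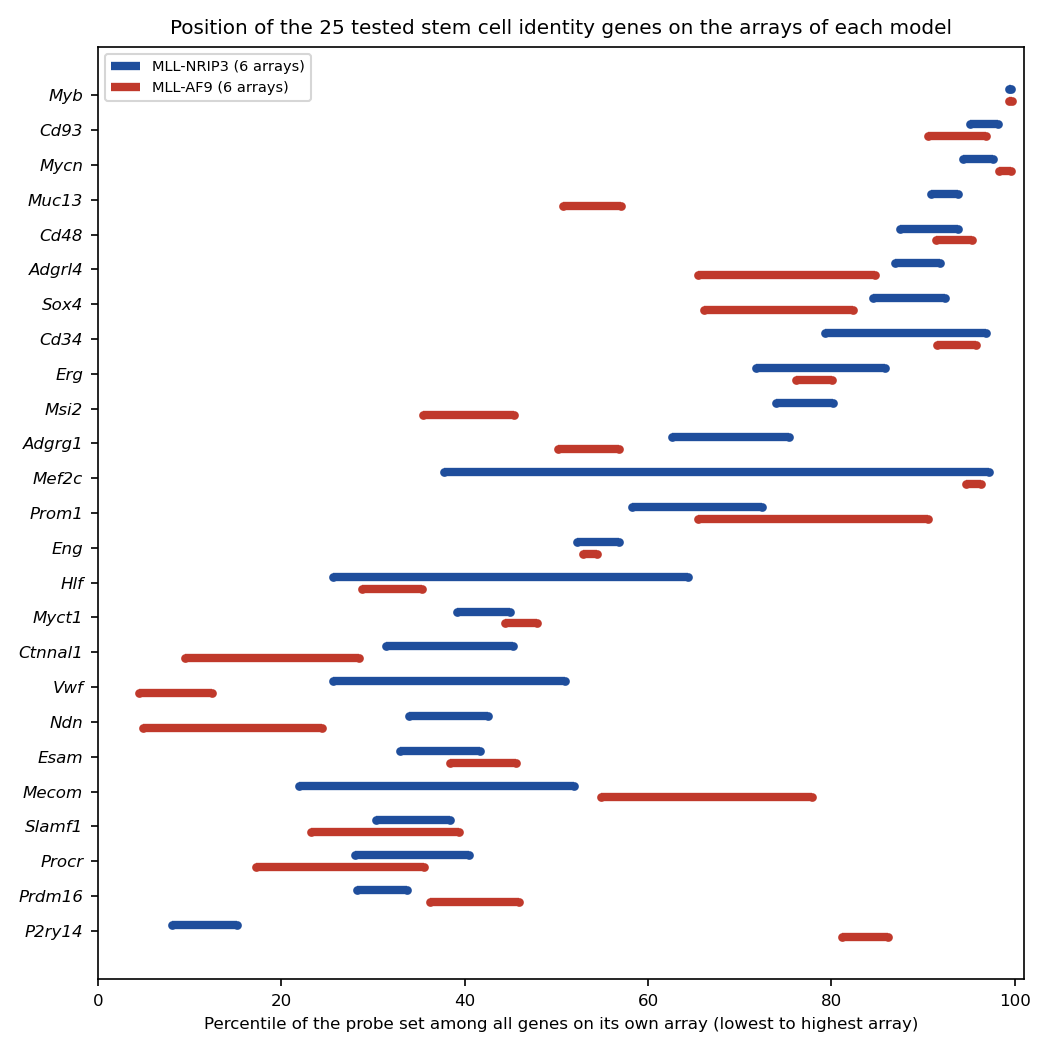
Range of the within-array percentile of the 25 tested members over the 6 MLL-NRIP3 arrays (blue) and the 6 MLL-AF9 arrays (red). P2ry14, Muc13 and Msi2 have ranges far apart, and Myb lies above the 99th percentile in both.

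A further list of 50 stem and progenitor genes, of which 38 were tested, showed where the members' neighbours went. In MLL-AF9 leukemia 11 were lower and 3 higher after Rictor deletion, against 4.46% and 3.8% of all genes tested. The median log2 fold change of the 38 was -0.12, beside -0.0093 for all genes. Angpt1, the ligand of the TIE2 receptor, fell by 1.61 ± 0.16 on the log2 scale (SE, adjusted p = 1.1e-04), and Hacd4 and Alcam fell by 0.85 and 0.49. Cd9, a tetraspanin of stem cells and megakaryocytes, rose by 1.49 ± 0.16 (adjusted p = 1.7e-04). Kit, the receptor for stem cell factor, averaged 143 ± 12.2 in Rictor-deleted and 195 ± 36.4 in control cells (SD, n = 3 each, limma adjusted p = 0.056).

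In MLL-NRIP3 leukemia the median over those 38 genes was 0.08, beside -0.00047 over all genes. Against 0.779% of all genes, 4 of the 38 were called there, all higher after deletion. They were Vldlr (1.615 ± 0.14, SE, adjusted p = 0.0020), Itga2b (1.18 ± 0.15, adjusted p = 0.011), Ifitm1 (1.71 ± 0.28, adjusted p = 0.028) and Runx1 (0.76 ± 0.14, adjusted p = 0.042). Itga2b, the integrin alpha-IIb chain of megakaryocytes and early stem cells, fell by 0.33 in MLL-AF9 cells (adjusted p = 0.034). The responses of 10 of the 38 genes were higher in MLL-NRIP3 than in MLL-AF9 leukemia and that of 1 was lower, against 2.25% and 2.53% of all genes. Of these 10, Vldlr, Mllt3 and Tgfbr3 were dim in MLL-AF9 cells, so no fold is read there.

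Markers of more mature cells moved with genotype on the same arrays. Of 18 tested neutrophil markers 17 were called higher in Rictor-deleted MLL-AF9 cells, against 3.8% of all genes tested. Their summed intensity there was 32082 to 35564, against 9583 to 13901 in controls. In MLL-NRIP3 leukemia 4 were called lower, against 0.748% of all genes. The sum was 2260.3 to 2533 in Rictor-deleted cells and 5562 to 22888 in controls. Of 14 tested monocyte and macrophage markers 8 were called lower in Rictor-deleted MLL-AF9 cells, against 4.46% of all genes. The sums over 15 measured markers were 3595 to 4008, against 4722 to 5261 in controls. The part of these cells in the readings of the members was not tested. In such sorted bulk cells, fewer cells of a type and less RNA per cell cannot be told apart.

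Several members, Adgrl4, Esam, Eng, Emcn and Robo4 among them, are also transcribed in endothelium. Of 12 tested endothelial markers (22 listed) 1 was called in each leukemia, Pecam1, which was lower. The shares of all genes called lower were 4.46% in MLL-AF9 and 0.748% in MLL-NRIP3 leukemia. The summed intensity of the 22 listed markers was 208 to 242 in Rictor-deleted and 256 to 268 in control MLL-AF9 cells. In MLL-NRIP3 cells it was 309 to 348 and 332 to 435. Pecam1 is part of that sum, and averaged 46.7 in Rictor-deleted and 81.5 in control MLL-AF9 cells. In MLL-NRIP3 cells it averaged 38.6 and 146. Its fall was near that of the sum in MLL-AF9 cells and larger than that of the sum in MLL-NRIP3 cells. Pecam1, which leukocytes also transcribe, read 50.0, 36.5 and 29.3 in Rictor-deleted and 195.5, 154 and 88.1 in control MLL-NRIP3 cells. Of the 12 tested markers 10 had a positive log2 fold change there, Cldn5 and Stab2 among them, which were dim. In Rictor-deleted cells 3 (Kdr, Flt1 and Ramp2) were higher with no overlap, a pattern shown by 9.7% of all genes, and none of them was called. Kdr, a VEGF receptor, read 19.8, 19.99 and 22.4 in Rictor-deleted and 14.6, 16.9 and 15.9 in control cells (log2 fold change 0.21, adjusted p = 0.22). Cdh5, Tie1, Tek and Sox17, which define endothelium, read between 2.22 and 11.55 on all arrays, under the median of their array. The part of endothelial cells in the members' readings was not tested. Megakaryocyte markers gave 2 calls among 9 tested in MLL-AF9 leukemia, Itga2b and Itgb3, both lower, and 1 in MLL-NRIP3 leukemia, Itga2b, higher. The shares of all genes called in those directions were 4.46% and 0.779%. Both genes are also in the list of 50 stem and progenitor genes above. The log2 fold change was positive for 6 of the 9 in MLL-AF9 and for 7 in MLL-NRIP3 leukemia.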

How the data were processed

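Gene expression was read from 12 Affymetrix arrays of sorted mouse leukemia cells, per the labels' protocols from 7 µg of total RNA each, isolated with Trizol and turned into biotin-labelled cRNA. The deposited values are linear intensities, 1 for each of 45101 probe sets and array. The sources used here do not give how the authors summarised, background-corrected and normalized them. The median intensity was 8.16 to 8.36 on MLL-AF9 arrays and 13.6 to 14.2 on MLL-NRIP3 arrays, so the models look separately normalized and levels set across them are not on 1 scale. Groups and replicate numbers came from the sample titles.

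The platform annotation gave a single symbol to 34958 probe sets, more than one to 932 and no symbol to 9211. Symbols were updated by Entrez number to a RefSeq table of GRCm38.p6 (18032 of 18194 genes matched). The brightest single-symbol probe set stood for a gene, genes under the 40th percentile of mean intensity (7.70) were left out, and log2(intensity + 16) was used. Each model was fitted on its own 6 arrays by lmFit and trended eBayes of limma 3.58.1 (R 4.3.3), which left 4 residual degrees of freedom, since replicate spread differed between models. The difference of the responses used all 12 arrays with 1 weight per model (8 residual degrees of freedom). Tests were 2-sided. With 3 arrays in each group, the smallest p of an exact permutation test is 0.1. The number of arrays limits the precision. On simulated data the per-model fits kept false calls near the threshold, at 2.59% of calls in MLL-AF9 and 5.1% in MLL-NRIP3. The difference test made more false calls than its threshold allows, at 14.7%.

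Same-numbered arrays of the 2 genotypes did not deviate together (correlations -0.135 to 0.056), so the numbers were not used as pairs. The members, the further gene lists and the tests were chosen with earlier results of these data known. Named members are those called in a model or in the difference and those whose genotypes did not overlap; from further lists up to 4 genes with the smallest p were named, and a few single-array values were picked after they were seen. Alternatives were a shared spread, array weights, a replicate block, other filters, pseudocounts and normalizations, other uses of probe sets, no trend, a hybridization control covariate and leaving out arrays. No 2 arrays held identical values. Python 3.11.15 with pandas 2.3.3 wrote the tables, and matplotlib 3.10.9 drew the plots.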

Additional observations from a re-analysis of the deposited data

Results flagged for a closer look

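For 3 members the response to Rictor deletion differed between the leukemias by a test of the difference itself (limma, MLL-NRIP3 minus MLL-AF9, log2 scale): Prom1 by -2.40, Cd34 by 1.85 and Adgrl4 by 1.47. That test made more false calls on simulated data than its threshold allows. Genotype and the sex of the cells cannot be told apart in MLL-AF9 leukemia. The second Adgrl4 probe set, 1418059_at, differed by 1.38. Among the further probe sets, Cd93 1441907_s_at differed by 0.44 and Prdm16 1440745_at by -0.54, and neither is the brightest of its gene. The Cd93 probe set was dim in MLL-AF9 cells, at means of 4.81 in Rictor-deleted and 6.11 in control cells. The Prdm16 probe set was dim in MLL-NRIP3 cells, at 4.44 and 4.05. No fold is read where they were dim.

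Of the further stem and progenitor genes named in the text or by rule, the response was higher in MLL-NRIP3 than in MLL-AF9 leukemia for Angpt1 by 2.71, Ifitm1 by 1.87, Vldlr by 1.60, Itga2b by 1.51, Runx1 by 1.11 and Kit by 0.98. Vldlr was dim in MLL-AF9 cells, at means of 5.03 in Rictor-deleted and 4.81 in control cells, so no fold is read there. Single arrays out of line, such as MLL-NRIP3 control array 3 for Mef2c, could not be tested as outliers in groups of 3.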

How the results depend on the processing

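In MLL-AF9 leukemia 10 members and 1039 genes were called. One spread shared by all 12 arrays left 2 members and 176 genes, 118 higher and 58 lower, against 478 and 561; leaving out 1 array gave 7 to 10 members and 582 to 963 genes, with 582 without Rictor-deleted array 2 and 661 without array 3. In MLL-NRIP3 leukemia, with 1 member and 192 genes called, the shared spread gave 5 and 1734, array weights 8 and 3009, the mean of probe sets 0 and 82, no trend 0 members, the hybridization control covariate 0 and 30, and the omission of control arrays 1 and 2 0 and 27. Leaving out 1 array gave 0 to 2 members and 30 to 862 genes, namely 862 without control array 3, 72 and 30 without control arrays 1 and 2 singly, and 44 and 68 without Rictor-deleted arrays 1 and 2. Counts of 0 are from limma, where 17.7% of all genes had an unadjusted p under 0.05. For the difference, with 3 members and 601 genes, array weights gave 11 and 2529, the covariate 314 genes, the omission of control arrays 1 and 2 5 and 246, and leaving out 1 array 3 to 5 members and 289 to 1113 genes, with 1113, 391 and 352 without control arrays 3, 1 and 2 of MLL-NRIP3 and 289 and 379 without its Rictor-deleted arrays 1 and 2. The difference for Mef2c was 1.60 without MLL-NRIP3 control arrays 1 and 2, against -1.80 with all arrays. A replicate block gave 9 members and 960 genes in MLL-AF9, 1 and 163 in MLL-NRIP3, and 6 and 520 for the difference; the replicate numbers do not pair the arrays. Fewer arrays and an estimate of spread drawn from the other model account by construction for part of these shifts, and otherwise the cause was not tested. Dim members near the floor have no readable fold at this signal over background.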

Other observations

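A list of 18 genes tied to stem cells of MLL leukemia, of which 16 were tested, shares Mecom, Myb and Mef2c with the members. In MLL-AF9 leukemia 2 were higher after Rictor deletion and 5 lower, against 3.8% and 4.46% of all genes tested. Among those 5, Myb and Mef2c are members already counted above, and Meis1 was also counted in the list of 50 stem and progenitor genes. Hmgb3, a chromatin protein, rose by 0.69 ± 0.12 on the log2 scale (SE, limma adjusted p = 0.0052). Eya1, a transcriptional co-activator, fell by 0.54 ± 0.11 (adjusted p = 0.0092), and Meis1, a homeobox partner of HOXA9, fell by 0.41 ± 0.09 (adjusted p = 0.014). In MLL-NRIP3 leukemia 1 was called, Hoxa5, which rose by 1.12 ± 0.18 (adjusted p = 0.028) and fell by 0.48 ± 0.12 in MLL-AF9 cells (adjusted p = 0.031). Meis1 and Hoxa10 gave 0.52 ± 0.19 (adjusted p = 0.215) and 0.70 ± 0.19 (adjusted p = 0.13) there.

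Some mast cell, basophil and eosinophil markers also differed by genotype, while the list as a whole went both ways. Of 7 tested, 3 were called lower in Rictor-deleted MLL-AF9 cells, against 4.46% of all genes tested. The log2 fold change was positive for 3 of the 7 and negative for 4 there. Prg2 and Prg3, eosinophil granule proteins, fell by 1.62 ± 0.09 (adjusted p = 2.1e-06) and 2.14 ± 0.16 (adjusted p = 1.1e-05). In Rictor-deleted MLL-NRIP3 cells 2 were called higher, against 0.779% of all genes. They were Hdc, the histamine-forming enzyme, by 1.32 ± 0.16 (adjusted p = 0.010) and Cpa3, a mast cell protease, by 2.69 ± 0.51 (adjusted p = 0.046). The log2 fold change was positive for 4 of the 7 and negative for 3 in that leukemia. The summed intensity of 13 such markers was 911 to 2469 in Rictor-deleted and 599 to 634 in control MLL-NRIP3 cells. In MLL-AF9 cells it was 470.0 to 592 and 1175 to 1304. Cpa3 is part of that sum, and averaged 952 in Rictor-deleted and 104 in control MLL-NRIP3 cells.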
